A study of Mus musculus with 288 samples.

Results

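Acly, Acaca, Fasn, Scd1, Scd2, Elovl1, Elovl6, Srebf1 and Fabp5 are 9 mouse genes of fatty acid synthesis, desaturation, elongation and binding. They were taken by symbol from a table of 24781 genes, in which 12843 genes, these 9 among them, had at least 1 count in the wells used here. Their levels were described in single lung epithelial cells, in 3 classes of wells set by the surfactant gene Sftpc and the secretoglobin gene Scgb3a1. None of the 9 genes took part in forming the classes.

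The cells came from lungs of C57BL/6 mice aged 4 months that all carried Scgb1a1-CreER and Rosa26-mTmG. CreER is a drug-inducible recombinase, driven here by the promoter of the club cell gene Scgb1a1, and mTmG is a reporter that changes its fluorescent protein once recombined, so a labelled cell is one in which that promoter was active at induction or that descends from such a cell. The sort took the Epcam+, CD45-, CD31- fraction with low CD24 and a positive Scgb1a1 lineage label, 1 cell per well, and 2 wells of medium served as negative controls. No label names the animal behind a well, so the wells were treated as 1 sample: no p-value was made, no difference could be checked in replicates, and every interval is a 95% interval for counting error only.

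Lung alveolar type 2 cells secrete surfactant, a film of phospholipid rich in palmitate, and they make part of its fatty acids themselves. In the cytosol ATP citrate lyase (Acly) cleaves citrate to acetyl-CoA, acetyl-CoA carboxylase (Acaca) turns that into malonyl-CoA, and fatty acid synthase (Fasn) joins these units into palmitate. Stearoyl-CoA desaturases place a double bond in the chain, elongases lengthen it, fatty acid binding proteins carry it through the cytosol, and the transcription factor SREBP-1, encoded by Srebf1, is known to drive many of these genes.

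A well entered when its total was above 2340 counts, which is 10 times the 234 counts of the fuller control. This kept 227 of 286 wells, whose totals ran from 2384 to 15088 counts (median 5356). Of these, 63 wells had Sftpc at 1% or more of their total (Sftpc wells), 74 had Scgb3a1 at 1% or more (Scgb3a1 wells), 90 had neither (other wells), and 0 had both. Median totals were 3529, 6940.5 and 5406 counts in that order, so shares of wells with a count are also given after each well was thinned at random to 3151 counts, which left 44, 74 and 86 wells. Leaving out Sftpc, the 14 alveolar type 2 markers of the list all had a count in the Sftpc wells and summed to 75001 CPM (a gene's share of all counts of a class, in the usual scaling), against 8190 in the Scgb3a1 wells and 14278 in the other wells. Of the 13 with enough counts, 12 were at least 2-fold higher in the Sftpc wells than in either class, and Muc1 was not (669, 717 and 477 CPM). Scgb1a1 itself was at a median of 0.968% of the total in the Sftpc wells and 31.6% in the other wells. Neither control held a count of any of the 9 genes.

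All 9 genes lie on chromosomes 3, 4, 11 and 19. Fasn (11:120805846-120824547), Acly (11:100476353-100528000) and Srebf1 (11:60199089-60222581) are on the minus strand of chromosome 11 and Acaca (11:84129672-84401651) on its plus strand (GENCODE M21, GRCm38). Scd1 (19:44394455-44407879, minus strand) and Scd2 (19:44293674-44306864, plus strand) are both on chromosome 19. Elovl1 (4:118428093-118432953), Elovl6 (3:129532355-129638495) and Fabp5 (3:10012548-10016607) are on plus strands. Elovl1 overlaps Cdc20 on the opposite strand and Srebf1 overlaps Rai1. These partners held 9 and 27 counts over all wells, removed wells and controls included. The counting is not stated to use strand, so reads of overlapping genes cannot be told apart.

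The 250 bases before the transcription start are shown for Fasn, Acly, Elovl1 and Srebf1, so that the sequences next to their starts can be compared. They come from the RefSeq promoter table for GRCm38.p6, in which 6 of the 9 genes matched by symbol with 9 start windows, and each one shown ends at the 5′ end of the gene given above. The single windows of Acaca, which lies inside the gene, and of Elovl6, which overlaps its exons, are not shown and held none of the motifs below. Sequences are written 5′ to 3′ on the gene's strand. Capitals mark CCAAT (the CCAAT box, bound by NF-Y) and GGGCGG (the GC box, bound by Sp1), each on either strand, so ATTGG and CCGCCC are also in capitals. Windows are chr11:120824548-120824797 for Fasn, chr11:100528001-100528250 for Acly, chr4:118427843-118428092 for Elovl1 and chr11:60222582-60222831 for Srebf1.
Fasn: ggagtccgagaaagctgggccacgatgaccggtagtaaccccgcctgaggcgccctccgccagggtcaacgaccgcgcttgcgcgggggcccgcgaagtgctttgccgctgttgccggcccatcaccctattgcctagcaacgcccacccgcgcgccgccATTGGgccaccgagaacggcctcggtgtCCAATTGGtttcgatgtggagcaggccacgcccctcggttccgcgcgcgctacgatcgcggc
Acly: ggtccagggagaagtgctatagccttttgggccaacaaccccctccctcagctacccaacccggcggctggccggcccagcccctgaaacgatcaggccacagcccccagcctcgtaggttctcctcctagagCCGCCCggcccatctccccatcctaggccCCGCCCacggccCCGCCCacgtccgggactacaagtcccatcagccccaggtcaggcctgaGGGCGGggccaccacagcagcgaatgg
Elovl1: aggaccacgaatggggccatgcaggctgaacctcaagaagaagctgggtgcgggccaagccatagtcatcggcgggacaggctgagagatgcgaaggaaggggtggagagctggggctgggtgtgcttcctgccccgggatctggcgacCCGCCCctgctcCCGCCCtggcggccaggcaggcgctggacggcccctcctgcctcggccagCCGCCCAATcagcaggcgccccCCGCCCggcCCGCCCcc
Srebf1: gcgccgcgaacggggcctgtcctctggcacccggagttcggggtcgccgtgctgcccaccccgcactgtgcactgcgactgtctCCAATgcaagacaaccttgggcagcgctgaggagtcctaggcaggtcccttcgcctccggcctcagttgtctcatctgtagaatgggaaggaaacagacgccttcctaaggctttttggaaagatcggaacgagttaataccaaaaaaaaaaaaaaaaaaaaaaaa

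The Fasn window held 3 CCAAT matches, with the first base of each 90, 62 and 59 bases before the start; the last 2 lie on opposite strands and overlap. Acly held 4 GGGCGG matches and no CCAAT. In Elovl1 a CCAAT 35 bases before the start overlapped 1 of 5 GGGCGG matches. Srebf1 held 1 CCAAT, 166 bases before this start, and no GGGCGG. Its other 2 windows, at chr11:60220628-60220877 and chr11:60210472-60210721, each held 2 GGGCGG matches and the latter also 1 CCAAT, and the other Elovl1 window (chr4:118429451-118429700) held 2 GGGCGG matches. Some of the 9 windows of these genes belong to the same gene. Over all of them CCAAT was found in 4 of 9 (3 of 6 genes), against 33.8% of 32851 promoter windows of the same length. GGGCGG was found in 5 of 9 (3 of 6 genes), against 32.7%. The sterol regulatory element core TCACNCCA and the E-box CACGTG, both of which SREBP proteins are known to bind, were found in 0 of the 9, against 3.67% and 6.02% of all windows, which says only that these letters are not in these windows.

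All members but Elovl6 had higher pooled levels in the Sftpc wells than in both other classes. Against the other wells, 8 of the 8 members with at least 20 counts in both classes together were at least 2-fold higher and 0 were 2-fold lower. Over all 3854 genes with that many counts, 17.4% were at least 2-fold higher and 9.68% at least 2-fold lower. Against the Scgb3a1 wells the members' count was again 8 of 8, beside 19.7% higher and 13.2% lower of 3834 genes. The median log2 ratio of the members was 3.72 against the other wells and 3.92 against the Scgb3a1 wells, beside 0.18 and 0.20 over all genes. The 2 comparisons share the Sftpc wells. The background depends on the scaling: the shares of genes 2-fold higher and lower were 11.5% and 14.6% with edgeR's TMM factors, 12.6% and 12.9% with DESeq2's size factors and 13.6% and 12.0% without 4 abundant genes (Scgb1a1, Sftpc, Scgb3a1 and Rn45s) in the totals against the other wells, and 12.8% and 19.9% (TMM) and 14.0% and 18.6% (DESeq2) against the Scgb3a1 wells. Under each of these 3 scalings the members' count against the other wells was 7 of 8, without Srebf1, and against the Scgb3a1 wells 8 of 8.

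Summed over the members, pooled levels were 9988 CPM (9593 to 10396) in the Sftpc wells, 308 (262 to 360) in the Scgb3a1 wells and 540 (478 to 608) in the other wells. The sum was thus 18.5-fold higher in Sftpc wells than in other wells (16.3 to 21.0) and 32.4-fold higher than in Scgb3a1 wells (27.6 to 38.4). Scd1 gave 60.9% of the member counts of the Sftpc wells; without it the ratios were 10.2 and 15.0. In single wells the sum ran from 1022 to 24917 CPM (median 10735) in the Sftpc wells, from 0 to 2278 (median 290) in the Scgb3a1 wells and from 0 to 1795 (median 499) in the other wells. The ranges of the classes overlapped only between the poorest Sftpc wells and the richest of the rest.

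**Figure D1:**
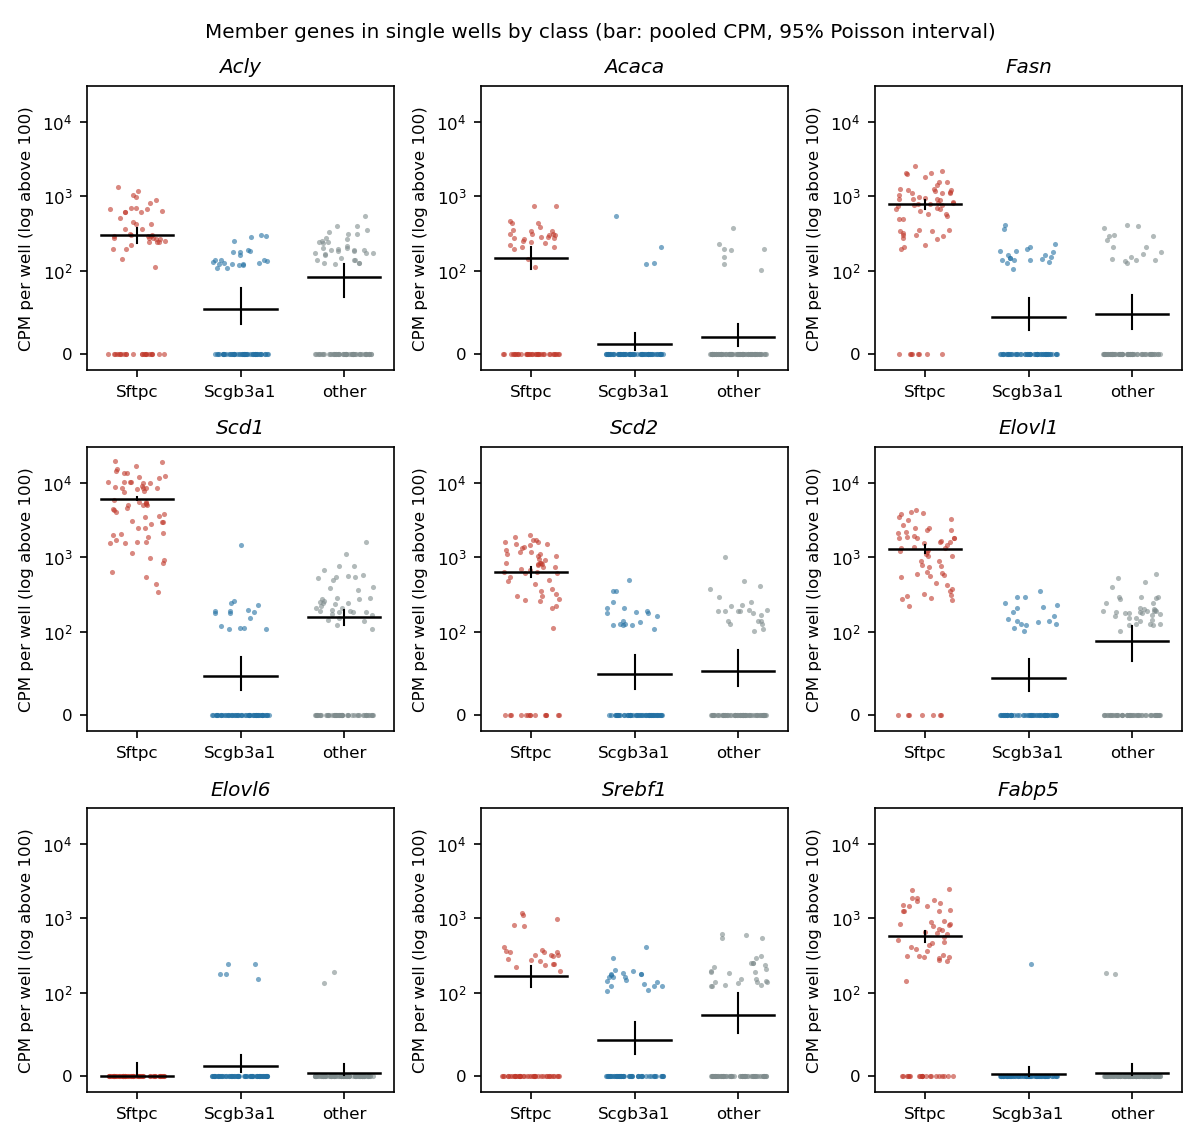
Level of each of the 9 genes in single wells, in CPM of the well's total on an axis that is linear below 100 and logarithmic above, for the 63 Sftpc wells, 74 Scgb3a1 wells and 90 other wells. Points are wells, spread sideways at random, and bars are the pooled CPM with its Poisson interval; Scd1 had a count in all 63 Sftpc wells, and Elovl6 in 0.

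The 3 enzymes that lead from citrate to palmitate were higher in the Sftpc wells to unequal degrees. Acly had 303 CPM in the Sftpc wells (238 to 381, 73 counts), 54.6 in the Scgb3a1 wells (28 counts) and 93.0 in the other wells (47 counts). Across single Sftpc wells it ran from 0 to 1323 CPM with a median of 250, against highest values of 307 and 544 CPM in the Scgb3a1 and other wells, whose medians were 0. The Sftpc wells exceeded the other wells 3.26-fold (2.23 to 4.81), and the well ranges overlapped widely.

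Acaca, whose product malonyl-CoA is the unit of chain growth, had 150 CPM in the Sftpc wells (105 to 207, 36 counts), 11.7 in the Scgb3a1 wells (6 counts) and 19.8 in the other wells (10 counts). It was 7.56-fold higher in Sftpc than in other wells (3.67 to 17.1). A count was seen in 28 of 63 Sftpc wells, 4 of 74 Scgb3a1 wells and 8 of 90 other wells. In each class the median well was at 0, with highest wells at 746, 537 and 373 CPM.

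Fasn, the synthase itself, had 777 CPM in the Sftpc wells (670 to 897, 187 counts), 44.8 in the Scgb3a1 wells (23 counts) and 47.5 in the other wells (24 counts). Single Sftpc wells ran from 0 to 2552 CPM with a median of 754; in the other classes the median was 0 and the highest wells were at 414 and 409 CPM. The ratio was 16.4 against the other wells (10.7 to 26.2) and 17.3 against the Scgb3a1 wells (11.2 to 28.0). At equal depth a Fasn count was present in 38 of 44 Sftpc wells, 10 of 74 Scgb3a1 wells and 8 of 86 other wells.

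Both delta-9 desaturases, which convert saturated to monounsaturated acyl-CoA, were higher in the Sftpc wells, Scd1 by more. Scd1 had 6083 CPM in the Sftpc wells (5775 to 6403, 1464 counts), 46.8 in the Scgb3a1 wells (24 counts) and 156 in the other wells (79 counts). Its lowest, median and highest Sftpc wells were at 341, 4967 and 19184 CPM, and the highest wells of the other 2 classes at 1450 and 1595. Every Sftpc well held Scd1, against 16 of 74 Scgb3a1 wells and 39 of 90 other wells. The ratio was 38.9 against the other wells (31.0 to 49.4) and 130 against the Scgb3a1 wells (87.1 to 204). Among Sftpc wells thinned to equal depth the variance of the Scd1 count was 11.6 times its mean, where 1 is the value of counting alone.

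Scd2, the second desaturase, had 640 CPM in the Sftpc wells (543 to 749, 154 counts), 48.7 in the Scgb3a1 wells (25 counts) and 53.4 in the other wells (27 counts). It was 12.0-fold higher in Sftpc than in other wells (7.92 to 18.8) and 13.1-fold higher than in Scgb3a1 wells (8.57 to 20.9). Single Sftpc wells ran from 0 to 1999 CPM with a median of 629. The counting intervals of the pooled Scd1 and Scd2 ratios did not overlap, but they do not measure the spread between wells. Of their relatives, Scd3 had 1 count and Scd4 had 0 in all kept wells; the Scd genes are similar in sequence, and no source used here says how the authors counted reads that fit several of them.

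The 2 elongases differed. Elovl1, which extends saturated and monounsaturated chains to very long ones, had 1296 CPM in the Sftpc wells (1156 to 1448, 312 counts), 44.8 in the Scgb3a1 wells (23 counts) and 89.1 in the other wells (45 counts). Single Sftpc wells ran from 0 to 4346 CPM with a median of 1112, and the highest wells elsewhere were at 358 and 595. Its ratio was 14.6 against the other wells (10.6 to 20.4) and 28.9 against the Scgb3a1 wells (18.9 to 46.3).

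Elovl6, which extends palmitate to stearate, had 0 counts in the Sftpc wells, which allows up to 12.5 CPM or a count in 4.76% of wells. It had 6 counts in 5 Scgb3a1 wells (11.7 CPM, 4.29 to 25.5) and 2 counts in 2 other wells (3.96 CPM, 0.479 to 14.3). With 8 counts in all it was below the count limit in every comparison, and a difference between the classes was not detectable at this depth. The related elongase Elovl5, which acts on polyunsaturated chains, had 38, 26 and 71 counts and was at 158, 50.7 and 141 CPM in the Sftpc, Scgb3a1 and other wells.

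Srebf1 showed the smallest excess of the 8 measured genes. It had 166 CPM in the Sftpc wells (119 to 226, 40 counts), 42.9 in the Scgb3a1 wells (22 counts) and 73.2 in the other wells (37 counts), a ratio of 2.27 against the other wells (1.41 to 3.65). Counts were seen in 23 of 63, 21 of 74 and 27 of 90 wells, and 1 Sftpc well gave 20.0% of the Sftpc wells' Srebf1 counts. The call did not hold when the pooled counts were rescaled by TMM factors (1.82-fold) or DESeq2's size factors (1.93-fold), or to totals without the 4 abundant genes, where it was just under 2-fold. The paralog Srebf2, which acts mainly on cholesterol genes, had 2, 9 and 5 counts in the 3 classes.

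Fabp5, an intracellular carrier of fatty acids, was nearly absent outside the Sftpc wells. It had 573 CPM there (482 to 677, 138 counts), against 1 count in the Scgb3a1 wells (1.95 CPM) and 2 counts in the other wells (3.96 CPM). The ratio was 145 against the other wells, with a wide interval (39.3 to 1208) set by the 2 counts. At equal depth 32 of 44 Sftpc wells held a Fabp5 count (72.7%, 57.2 to 85.0%), 1 of 74 Scgb3a1 wells and 1 of 86 other wells. Single Sftpc wells ran from 0 to 2470 CPM with a median of 393, and 21 of the 63 were at 0. Fabp5 is also known from macrophages and adipocytes. Of 14 macrophage and immune markers, 2 had a count in the Sftpc wells (Csf1r 2 counts, Cd68 1 count), for 12.5 CPM in sum against 1.95 and 13.9 in the Scgb3a1 and other wells, and the rest, Ptprc and Marco among them, were at 0. Of 10 fibroblast and adipocyte markers, 2 had a count there (Lpl 6, Mgp 2), for 33.2 CPM in sum against 3.90 and 13.9, highest in the Sftpc wells, and the rest, Plin1 and Adipoq among them, were at 0. In single Sftpc wells these sums ran from 0 to 358 and from 0 to 1202 CPM, with a count in 3 and 5 of the 63 wells. Their part in the Fabp5 level was not tested.

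**Figure D2:**
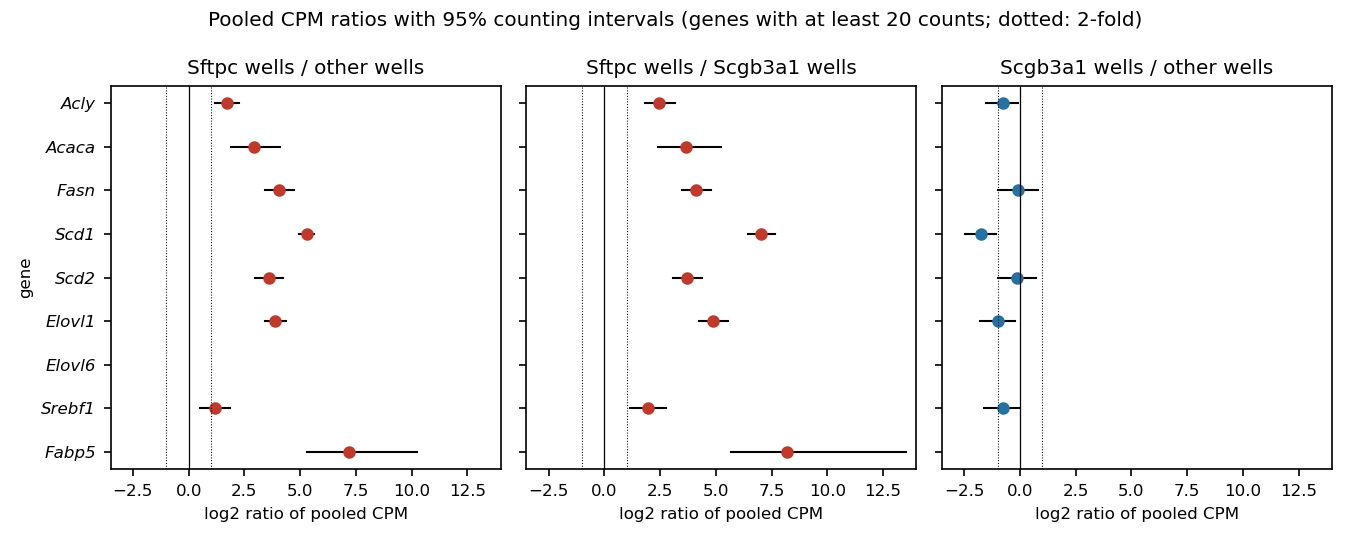
Log2 ratio of pooled CPM of each gene between the classes, with its counting interval, for genes with at least 20 counts in both classes together. In the left and middle panels all 8 plotted genes lie right of the dotted 2-fold line, and in the right panel 1 of 6, Scd1, lies left of it.

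Between the Scgb3a1 and the other wells the members differed less. Of 6 measured members, 0 were 2-fold higher and 1 was 2-fold lower in the Scgb3a1 wells, beside 8.13% and 9.24% of 4536 genes. The lower one was Scd1, at 0.299 times the level of the other wells (0.181 to 0.477). Elovl1 was at 0.503 (0.291 to 0.849), Acly at 0.587 (0.354 to 0.956) and Srebf1 at 0.585 (0.329 to 1.02), while Fasn was at 0.944 (0.509 to 1.75) and Scd2 at 0.912 (0.507 to 1.63). The sum of the members was 0.570 times that of the other wells (0.465 to 0.696). A count of a member was found in 67 of 74 Scgb3a1 and 81 of 90 other wells before thinning. Of the other wells, 39 held Scd1, 37 Elovl1 and 35 Acly.

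Single Sftpc wells mostly held more of the 9 genes than wells of the other classes. All but Elovl6 were detected in a larger share of the Sftpc wells, so this number alone does not show that the genes go together. At equal depth 35 of 44 Sftpc wells held counts of 5 or more of the 9 genes (79.5%, 64.7 to 90.2%), with a median of 6 and a range of 2 to 8. Of the Scgb3a1 wells 0 of 74 did, which allows up to 4.05%, and of the other wells 1 of 86 did (1.16%, 0.0294 to 6.31%). Without thinning the shares were 52 of 63 (82.5%), 0 of 74 and 3 of 90 (3.33%). At equal depth 24 Scgb3a1 wells, 12 other wells and 0 Sftpc wells held none of the 9 genes.

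**Figure D3:**
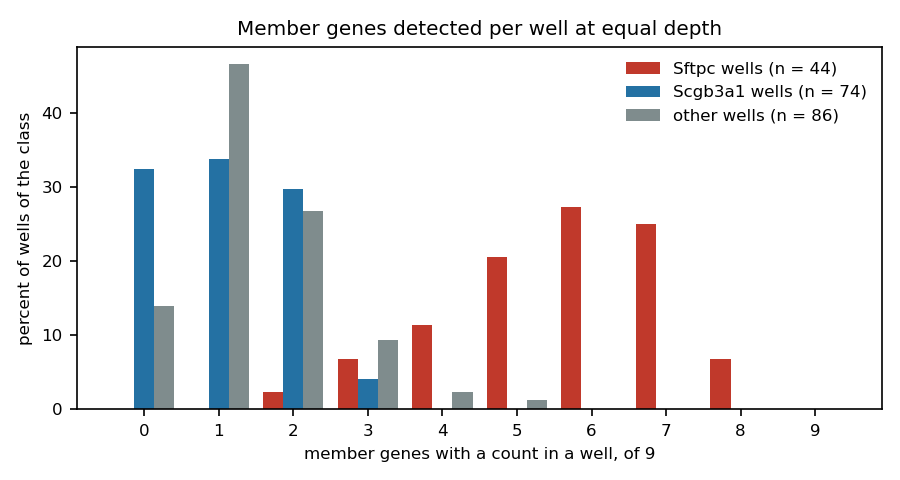
Share of wells, in percent of the class, by the number of the 9 genes with a count, after each well was thinned to 3151 counts. The 44 Sftpc wells sit between 2 and 8 genes, the 74 Scgb3a1 wells between 0 and 3 and the 86 other wells between 0 and 5.

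Within the Sftpc wells, pairs of members were compared with the product of their single shares. Of the 28 pairs of the 8 detected genes, 18 were seen together in more wells than that product at equal depth. Srebf1 with Fabp5 was found in 12 of 44 wells, where the product gives 8.73, and Acaca with Srebf1 in 8, where it gives 5.45. Acly with Acaca was found in 10, where it gives 13.2. Scd1 was present in 43 of the 44 wells, so its pairs, counted among the 28, have little room to differ from the product. At equal depth 13 of 36 pairs in the Scgb3a1 wells and 12 of 36 in the other wells were above the product. There 16 and 13 pairs were never seen together. Without thinning the counts were 16 of 28, 9 of 36 and 22 of 36 in the Sftpc, Scgb3a1 and other wells. Across the 44 thinned Sftpc wells Pearson's r between the counts of 2 members had a median of 0.17. The highest was 0.40, for Fasn with Scd1, and the lowest -0.21, for Acly with Scd2. Over the 63 unthinned wells, whose counts were not scaled to their unequal totals, the median was 0.30 and the highest 0.54. The wells share library preparation and class, the counts are sparse, and these values are descriptions.

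Wells next to the class limits were few. The 2 wells just below the Sftpc limit had Sftpc at 0.734% and 0.442% of their totals and 5 and 1 member counts. The 2 just above had it at 2.07% and 5.36% and 9 and 15 member counts. On either side of the Scgb3a1 limit, wells at 0.200% and 0.876% held 3 and 4 member counts and wells at 1.01% and 1.02% held 1 and 2.

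The table's columns fall into 3 successive sets of 96; no label says what the sets are, and they hold the classes unequally, with 6, 17 and 40 Sftpc wells, 38, 31 and 5 Scgb3a1 wells and 38, 33 and 19 other wells. The summed members were higher in Sftpc than in other wells within each set, 6.90-fold (5.28 to 9.02), 27.2-fold (22.4 to 33.4) and 15.4-fold (11.7 to 20.7). Scd1 in the Sftpc wells was at 1997, 8756 and 5773 CPM, and its ratio to the other wells at 9.50, 68.9 and 54.6. In the first set the interval of this ratio (6.36 to 14.3) overlapped that of Scd2 (0.871 to 11.0). The intervals also overlapped in the second set (47.2 to 105 and 10.9 to 50.7), and not in the third (28.6 to 120 and 3.00 to 13.5). Srebf1 was 0.595 times the level of the other wells in the first set, from 1 count, 3.06 times in the second and 1.33 times in the third. In the third set Acly and Acaca were at 1.83 and 1.95 times, below the 2-fold limit. The Scd1 difference between Scgb3a1 and other wells held in the first 2 sets (0.120 and 0.346) and was turned in the third (2.58, 0.816 to 7.78), where it rests on 7 and 9 counts. All 7 came from 1 of the 5 Scgb3a1 wells of that set, and the other 4 held 0 Scd1 counts.

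Scd1 was lower in the few Sftpc wells that were rich in Scgb1a1. A relation across all Sftpc wells was not tested. In 5 of the 63 wells Scgb1a1 was at 10% or more of the total (at least 19.7%), while in the other 58 it reached at most 9.47%; this split was chosen after the values were seen. Scd1 was at 871 CPM in the 5 wells and 6954 in the 58, a ratio of 0.125 (0.0841 to 0.180), and the summed members were at 2379 and 11260 CPM. In single wells the sum ran from 1022 to 3516 CPM in the 5 and from 1090 to 24917 in the 58, of which 5 fell within the range of the former. Fabp5 was at 87.1 and 655 CPM, Elovl1 at 464 and 1435, Fasn at 406 and 839 and Acly at 203 and 320. Sftpc itself was also lower in the 5 wells (61343 against 167432 CPM), their median total was higher (6906 against 3367.5 counts), and 3 of them are in the first column set; the part of these in the difference was not tested. Without the 5 wells the summed ratios were 20.8 against the other wells and 36.6 against the Scgb3a1 wells, and 8 of 8 members stayed at least 2-fold higher in both.

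**Figure D4:**
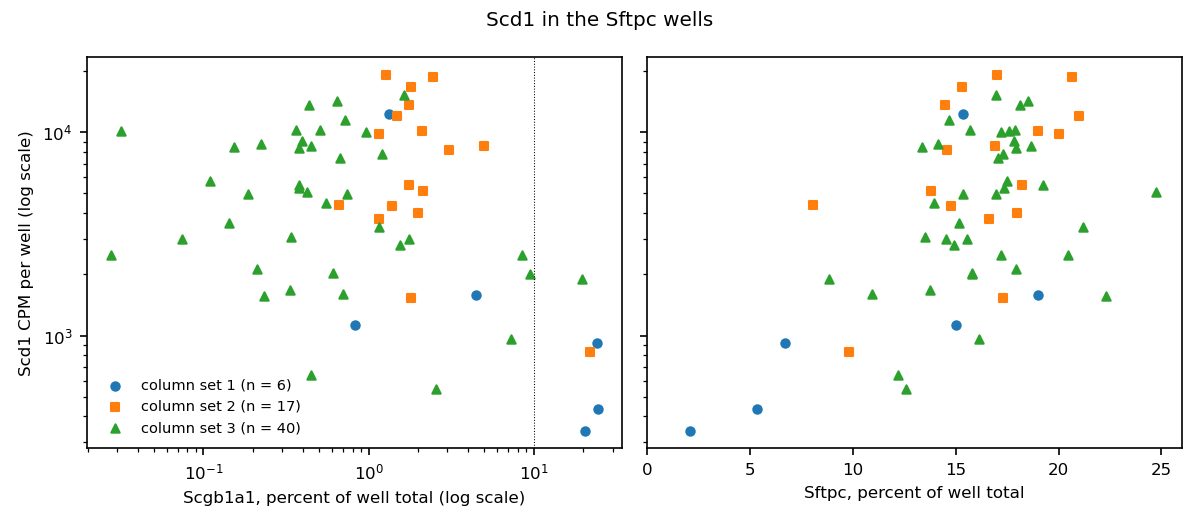
Scd1 in each of the 63 Sftpc wells, in CPM on a log axis, against Scgb1a1 (left, log axis) and Sftpc (right), both in percent of the well's total; marker shape and colour give the column set. The 5 wells right of the dotted line at 10% Scgb1a1 lie between 341 and 1893 CPM of Scd1.

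Genes around the members in lipid metabolism were described from 9 lists of 85 genes. Leaving aside fatty acid oxidation, 34 of the 69 listed genes had enough counts in Sftpc and other wells, of which 17 were at least 2-fold higher in the Sftpc wells, 3 were lower and 14 were within 2-fold, beside 17.4% higher and 9.68% lower of all genes; the median of their log2 ratios was 0.99. The share lower is near that of all genes. The list counts were not repeated with TMM or DESeq2 factors, which lower the ratios of the Sftpc wells. Each scaling changes all ratios of a comparison by the same factor. Against the other wells, Degs1 (2.03-fold), Gpam (2.23-fold) and Hacd3 (2.26-fold) had lower ratios than Srebf1 (2.27-fold). Srebf1 fell under 2-fold with TMM and with DESeq2 factors, so these calls do not hold under those factors. Other calls near 2-fold may not hold either, such as Dbi (2.42-fold) and, against the Scgb3a1 wells, Plin2 (2.04-fold). Against the Scgb3a1 wells 15 of 38 were higher and 5 lower (Acss2, Idh1, Hacd4, Acsl1 and Rxra), beside 19.7% and 13.2% of all genes. Of the genes called higher in what follows, Slc25a1 (1.63-fold), Tkt (1.29-fold), Cd36 (1.38-fold), Scap (1.85-fold) and Acadm (1.76-fold) did not reach 2-fold against the Scgb3a1 wells. Unless stated, the ratios below are against the other wells. In the oxidation list 11 were measured, 1 was higher (Acadm, 2.10-fold, 0.928 to 4.75), 0 were lower, and the median was 0.22, next to 0.18 over all genes. Against the Scgb3a1 wells 2 of its 12 measured genes were higher (Echs1, 2.22-fold, and Acaa2, 2.13-fold) and 0 lower.

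Among genes that act on the members or their substrates, Mid1ip1, whose product promotes the polymerisation of acetyl-CoA carboxylase, was at 557 CPM in Sftpc and 45.5 in other wells (12.2-fold, 7.82 to 20.0). The mitochondrial citrate carrier Slc25a1, which supplies the substrate of Acly, was 2.84-fold higher (1.45 to 5.66) and Acat2 2.94-fold. By contrast Acss2, which makes acetyl-CoA from acetate, had 0 counts in the Sftpc wells and 29 in each of the other classes, at least 4.60-fold lower than in the other wells. Of the 6 genes in the NADPH list only Tkt passed, at 2.51-fold (1.51 to 4.18). Tkt and Taldo1 (0.657) encode pentose phosphate enzymes that do not make NADPH themselves. None of the listed NADPH-making enzymes passed: Me1 was at 1.73-fold (1.10 to 2.72), G6pdx at 1.84-fold (0.830 to 4.02), Pgd at 0.753 and Idh1 at 0.687.

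Of the other desaturases, Fads1, which acts on polyunsaturated chains, was 4.80-fold higher (2.49 to 9.73). Degs1, of ceramide synthesis, was 2.03-fold higher (1.16 to 3.53). The elongation dehydratase Hacd3 was 2.26-fold higher. The acyl-CoA ligases were unlike one another: Acsl4 was 3.53-fold (2.48 to 5.05) and Acsl5 2.65-fold higher, while Acsl1 was at 0.213 times the other wells (0.0826 to 0.463). Of the glycerolipid genes, the lipid droplet coat gene Plin2 was 8.05-fold higher (3.19 to 24.2, 23 against 6 counts; 2.04-fold against the Scgb3a1 wells, with 24 counts), Lpin2 2.70-fold and Gpam 2.23-fold. The acyl-CoA carrier Dbi and the fatty acid receptor Cd36 were 2.42-fold and 2.73-fold higher.

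In the regulator list, 3 of 7 measured genes were higher and 1 lower, beside the same 17.4% and 9.68%; against the Scgb3a1 wells Scap gave way to Insig2 (2.35-fold, 0.904 to 6.16). The SREBP retention gene Insig1 was 4.28-fold higher (2.63 to 7.13), its partner Scap 3.03-fold (13 against 9 counts) and the transcription factor Cebpa 4.26-fold (2.80 to 6.58), and the nuclear receptor gene Rxra was at 0.300 (0.0573 to 1.00, 3 against 21 counts). Between Scgb3a1 and other wells, 3 of the 39 measured genes outside oxidation were 2-fold higher (Me1, Idh1 and Plin2) and 4 lower (Mid1ip1, Elovl5, Lpin2 and Insig1), shares near the 8.13% and 9.24% of all genes. Me1 and Idh1, both NADPH sources, were 2.31-fold (1.62 to 3.34) and 2.58-fold (1.88 to 3.58) higher there.

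**Figure D5:**
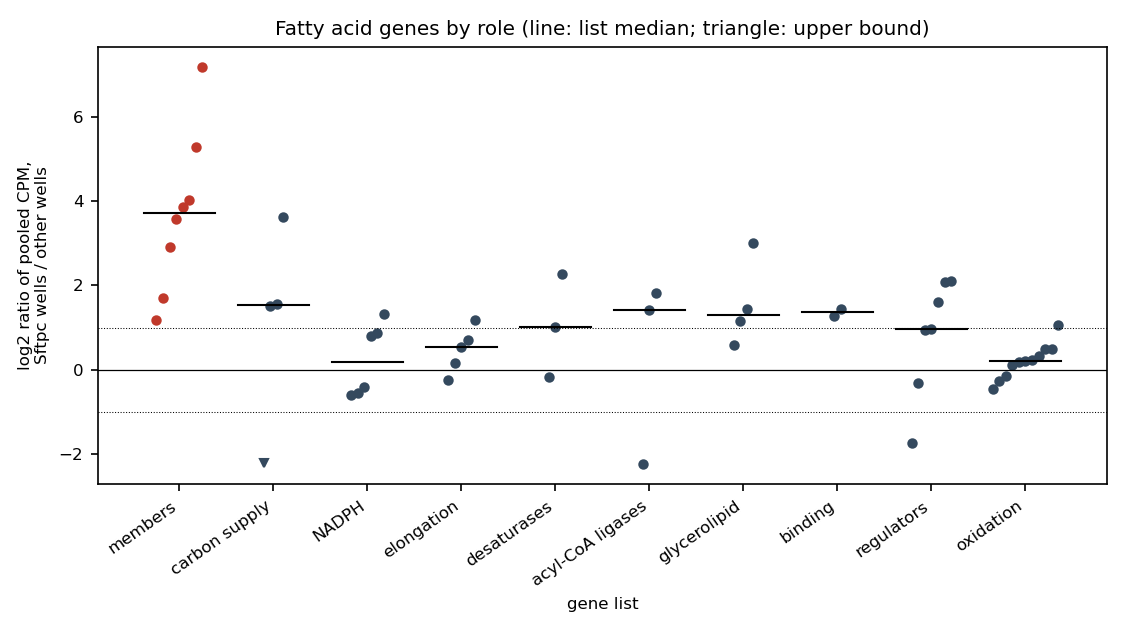
Log2 ratio of pooled CPM between Sftpc and other wells for the measured members and for the genes of each list; points are genes, solid bars list medians, dotted lines the 2-fold limits and the triangle the upper bound of Acss2. The median of the members is at 3.72, and the median of the oxidation list is at 0.22.

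The genes whose levels were most like the summed members over the 227 wells, among 1191 genes with at least 100 counts, were Slc34a2 (r = 0.89), Napsa (0.89), Lamp3 (0.87), Lyz2 (0.86) and Hc (0.84), by Pearson's r of log2(CPM + 100). Slc34a2, the phosphate carrier of alveolar type 2 cells, Napsa, Lamp3 and Lyz2 were among the alveolar type 2 markers. Over these 227 wells the summed members differed between the classes, so a gene largely confined to the Sftpc wells ranks high for that alone. Within the 63 Sftpc wells the nearest genes were Slc34a2 (0.66), Mid1ip1 (0.56), Tgoln1 (0.53), Napsa (0.53) and Hmgcs1 (0.50), the last an enzyme of cholesterol synthesis, where the median gene was at -0.02. With Scd1 left out of the sum they were Slc34a2 (0.72), Chil1 (0.53), Napsa (0.52), Cxcl15 (0.49) and Prnp (0.47), so Mid1ip1, Tgoln1 and Hmgcs1 were among the 5 nearest only with Scd1 in it. Wells share library and depth, and both values being shares of a well's total ties them to each other, so these are descriptions.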

How the data were processed

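Single cells were profiled by poly(A)-primed sequencing with a molecular barcode in the primer, per the labels' protocols. The authors deposited a table of raw whole-number counts, with gene symbols in rows and wells in columns. The submitters' processing notes name STAR, without a version, and mm10; not given in the sources used here are the annotation, the counting tool and whether barcodes were collapsed to molecules. If they were not collapsed, the intervals are too narrow. Every column was matched to a sample by its title.

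The members, lists and limits were chosen with earlier results of these data known. Pooled CPM carried exact Poisson intervals, ratios exact conditional binomial intervals and shares exact Clopper-Pearson intervals (95%), and 0 counts or wells were taken to allow up to 3. The called genes were those with at least 20 counts in both classes together and a ratio of at least 2-fold. Beside all members, the text names up to 10 genes of the lists with the largest log2 ratios and genes of lists where 5 or fewer passed. It also names the 5 genes most like the members. Other list genes (Elovl5, Srebf2, Scd3, Scd4, Hacd4, Insig2, Echs1, Acaa2 and NADPH genes) were named after their values were seen. Doublets were not called, since the wells are few. The ratio code was tested on simulated data. Python 3.11.15, numpy 2.4.6, pandas 2.3.3, scipy 1.17.1 and matplotlib 3.10.9 were used, with R 4.3.3, edgeR 4.0.16 and DESeq2 1.42.0 for alternative scaling factors only. Alternatives changed the class, total, count and fold limits, the scaling, the weighting of wells, the column sets and the depth of thinning.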

Additional observations from a re-analysis of the deposited data

Results flagged for a closer look

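The wells at or below the total limit entered no comparison, yet 27 of the 59 removed wells had Sftpc at 1% or more of their total and held counts of Scd1 and Elovl1 above the limit set by the controls. Scd1 had 7.15 counts per such well and Elovl1 2.15, against 0 counts in the 2 controls, which allows up to 1.5 counts per control well; the other members were below that limit. Pooled over the 27 wells Scd1 was at 6082 CPM (5255 to 7004), beside 6083 CPM in the kept Sftpc wells, and Fasn, Scd2 and Fabp5 were at 851, 693 and 567 CPM, beside 777, 640 and 573. The 29 removed wells with neither marker gene at 1% held 11 member counts in all (445 CPM, 222 to 796).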

How the results depend on the processing

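The excess of the summed members in Sftpc wells had the same direction under every alternative run. Against the other wells the ratio of 18.5 was 21.5 with class limits of 5%, 11.3 with totals above 5000, 16.3 with 4 abundant genes (Scgb1a1, Sftpc, Scgb3a1, Rn45s) left out of the totals, 14.8 with TMM, 15.7 with DESeq2 factors and 6.9, 27.2 and 15.4 in the 3 column sets. Against the Scgb3a1 wells 32.4 became 38.4 (5%), 22.8 (totals above 5000), 25 (TMM), 26.2 (DESeq2 factors) and 11.1, 55.5 and 15.4 (sets). Members 2-fold higher against the other wells were 7 of 8 with TMM (11.5% of all genes) and with DESeq2 factors (12.6%). Without the 4 genes they were also 7 of 8 (13.6%). At 4-fold 6 of 8 were higher, beside 4.75% of all genes. With totals above 5000 the count was 5 of 6 members with enough counts (12.4%). In set 1 it was 4 of 4 (12.0%) and in set 3 it was 5 of 8 (16.2%). Against the Scgb3a1 wells it was 4 of 4 in set 1 (13.7%). Between Scgb3a1 and other wells the summed ratio was 1 in set 3, where 1 of 5 Scgb3a1 wells gave 11 of 16 member counts; leaving out that well, an alternative added after seeing the data, gave 0.385, and 40 for Sftpc against Scgb3a1 wells. Further, without a count minimum 1 of 9 members (Elovl6, 8 counts) was higher and 2 of 9 lower, beside 10.9% and 17.8% of all genes. At 5% 2 of 6 were lower (12.6% of all genes). It was also 2 of 6 with totals above 5000 (8.67%) and with the limit set by the emptier control (9.56%). Without the 4 genes (10.1%), with wells weighted equally (10.4%) and without the last 96 columns (7.46%) it was again 2 of 6. The count was 2 of 5 in set 1 (7.30%), 3 of 5 in set 2 (8.10%) and 0 of 6 at 4-fold (1.61%). In set 3 no member had enough counts, so none could be called. Reversed values were Srebf1 at 0.595 and 0.589 (Sftpc against other and Scgb3a1 wells, set 1, 1 count) and Scd1 at 2.58 (Scgb3a1 against other wells, set 3, all 7 Scgb3a1-well counts from that 1 well). Wells with 5 or more members were 31.8% of Sftpc wells from 2 counts per gene and 62.5% with totals above 5000 (5 of 8 wells), and 0 of the other wells from 2 counts, with totals above 5000 and when thinned to 2000 counts. The median log2 ratio of all genes moved by -0.32 with TMM, -0.23 with DESeq2 factors and -0.18 without the 4 genes against the other wells, and by -0.38, -0.31 and -0.11 against the Scgb3a1 wells; these scalings shift members and all genes alike. Of 329 values of single members, 287 moved less than their counting interval, 39 more, and 3 reversed. Leaving out the 5 Sftpc wells rich in Scgb1a1 was also added after seeing the data. No paired analysis was possible because only cells and controls share replicate numbers and no test was made between them. Depth limits Elovl6, Acaca and Srebf1 most, at 8, 52 and 99 counts.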
